A study of Danio rerio with 4 samples.

Results

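Cells receive Fgf signals through receptor tyrosine kinases and pass them on through Ras and the MAP kinase Erk, and a set of target genes answers by building up or damping the same signal. In zebrafish embryos these signals act in the germ ring and tailbud, in the early hindbrain and at the midbrain-hindbrain boundary, the region around the isthmus that patterns the midbrain and the anterior hindbrain. The genes described here are 9 members of this circuit. They are the ligand genes fgf3, fgf17 and fgf24, the ETS transcription factor genes etv4 and etv5b, and the feedback inhibitor genes spry2, spry4, dusp6 and il17rd. They were taken by gene symbol from the annotation of the array, which lists 8 of the 9 and gives them 11 of 15617 probe sets. No probe set carries the symbol fgf17, so this ligand has no value by symbol. The RefSeq gene table lists fgf17 as an older name of fgf8b, whose probe set is given beside fgf8a and was not counted as fgf17.

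Zebrafish embryos of the RW strain came from crosses of hemizygous hsp-en-pou5f3 fish with wild-type fish and were raised at 25°C. The transgene places a fusion of the Drosophila Engrailed repressor domain with Pou5f3, a POU transcription factor, behind a heat shock promoter, and by the methods it interferes with the endogenous protein. Heat shock at 37°C for 60 min was given at 90% epiboly, near the end of gastrulation, or at 3-ss, the stage with 3 somites, and was followed by 30 min of development. Both genotypes received the heat shock, so that the wild-type siblings carry the treatment but not the transgene. Embryos were genotyped one by one, and their RNA was pooled by genotype, which gave 4 pools: wild-type and en-pou5f3 at 90% epiboly, and wild-type and en-pou5f3 at 3-ss. The pools are of whole embryos, and by the supplementary methods they come from a single clutch. The study asked which genes lie downstream of Pou5f3 at these stages, before and after the end of gastrulation.

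Each pool was measured on 1 Affymetrix array, and no difference has a replicate array. For some genes, gbx2 and egr2b among them, the paper reports qRT-PCR changes in the same direction as on the arrays. Signals under 32.4, the 95th percentile of 80 signals from 20 control probe sets that have no target in zebrafish RNA, were set to this floor. A gene with 1 signal under the floor has a ratio that is a bound, and a gene with both signals under it has none. As the only spread at hand, the SD between the probe sets that share a gene was 0.27 on the log2 scale for the genotype ratios at 90% epiboly and 0.34 at 3-ss, and 0.40 and 0.35 for the stage ratios in wild-type and en-pou5f3 embryos. It holds no variation between embryos. In pools of whole embryos, fewer cells of a type and less RNA per cell cannot be told apart.

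The pou5f3 probe set had signals of 5473 and 8284 in the wild-type and the en-pou5f3 pool at 90% epiboly, followed by 1277 and 2138 at 3-ss, higher in the array labelled en-pou5f3 at each stage. Of the 115 control probe sets of the manufacturer, 1, whose target the files do not name, stood at least 2-fold higher in both en-pou5f3 pools. Its signal was 110 in the wild-type and 5531 in the en-pou5f3 pool at 90% epiboly, and 1670 and 14534 at 3-ss. The wild-type array at 3-ss thus had 11.5% of the en-pou5f3 signal, against 1.98% at 90% epiboly. Whether this bears on the ratios at 3-ss was not tested, and with 1 array per condition no ratio at 3-ss can be given without that array.

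The first comparison asked how the circuit stood in en-pou5f3 embryos at 90% epiboly. Of 8 genes measured, 7 had a lower signal than in wild-type embryos and 1, etv5b, a higher one. The median log2 ratio was -0.48 over the 8 genes, against 0.03 over all probe sets measured. Of the 7 decreases, 3 are bounds and give only the least size, and without the floor the median was -0.79. At the 2-fold threshold 1 gene was lower, the ligand gene fgf3, and 0 were higher, while 2.25% of the 11594 probe sets measured were lower and 1.30% higher. At 3-ss all 7 genes measured had a lower signal in en-pou5f3 embryos by their brightest probe sets, with a median of -0.30 against 0.01. The ratios of il17rd, dusp6, spry2 and etv5b there were within the SD between probe sets. A dimmer dusp6 probe set was higher, at 0.28. By the brightest probe sets none of the 7 genes was 2-fold lower or higher, where 1.94% of 11970 probe sets were lower and 1.80% higher. The shares of all probe sets below 0 were not computed at either stage. The ratio of fgf24 at 3-ss is a bound and does not exclude a 2-fold decrease. Without the floor 1 gene, fgf24, was 2-fold lower there. Counts this small over 7 or 8 genes are not set apart from these shares.

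**Figure D1:**
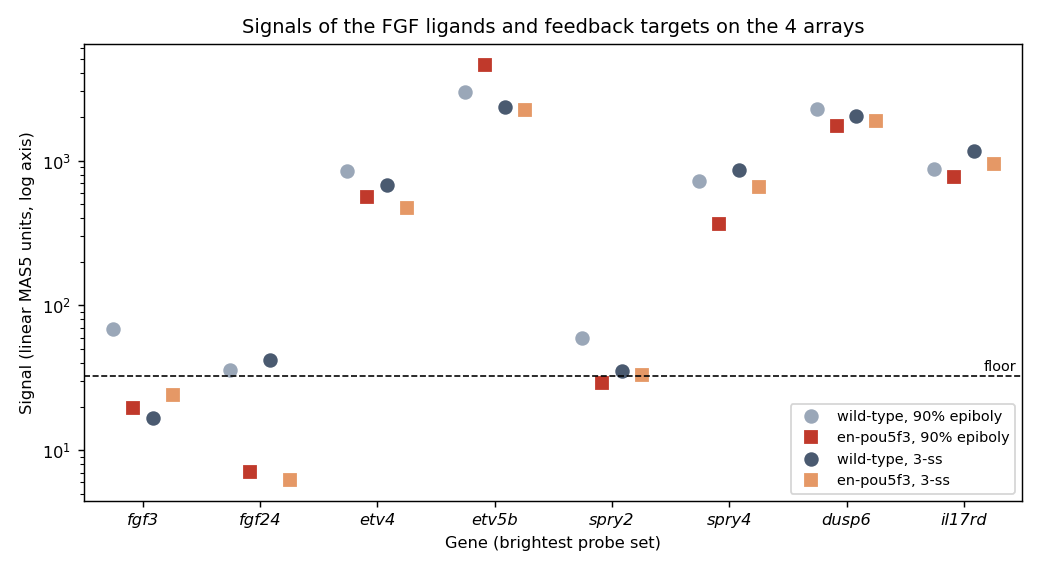
Signal of the brightest probe set of each gene on the 4 arrays, in linear MAS5 units on a log axis, with circles for wild-type and squares for en-pou5f3 embryos and a dashed line at the floor of 32.4. The 3 genes fgf3, fgf24 and spry2 lie near or under the floor, while the other 5 lie between 367 and 4580.

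The ligand fgf3 is secreted from the hindbrain and the germ ring and acts together with Fgf8 in the hindbrain. Its signal was 68.7 in the wild-type and 19.6 in the en-pou5f3 pool at 90% epiboly, and 16.6 and 24.2 at 3-ss. Only the wild-type array at 90% epiboly stood over the floor. With en-pou5f3 the gene was therefore lower by at least 2.12-fold at 90% epiboly (a log2 bound of -1.08), and no ratio can be given at 3-ss. Of all ratios at this stage, 223 of 11594 were lower. The same wild-type signal makes fgf3 at least 2.12-fold lower at 3-ss than at 90% epiboly in wild-type embryos. Both calls rest on 1 array, and the first was lost when the floor was added to both signals in place of replacing the lower one, which gave -0.96.

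The ligand fgf24 belongs to the subfamily of Fgf8, Fgf17 and Fgf18 and acts with fgf8a in the posterior mesoderm of zebrafish. Its signals were 36.1 and 42.1 in wild-type embryos at 90% epiboly and 3-ss, just over the floor, and 7.13 and 6.24 in en-pou5f3 embryos, under it. Both wild-type arrays lay above both en-pou5f3 arrays, an order whose share over all probe sets was not computed. With the floor, the bounds are close to 1. The en-pou5f3 signal was at least 1.11-fold lower at the earlier stage and at least 1.30-fold at the later one. Without the floor the log2 ratios were -2.34 and -2.76, which shows how far the value depends on signals at the level of the control probe sets.

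Beside these dim ligands, fgf8a, the main Fgf ligand of the midbrain-hindbrain boundary, was bright enough for a ratio at both stages. Its signal was 1092 in the wild-type and 219 in the en-pou5f3 pool at 90% epiboly, and 529 and 108 at 3-ss, which gave log2 ratios of -2.32 and -2.29. This decrease of about the same size at both stages lay beyond every ratio of the 8 genes, though those of fgf3, fgf24 and spry2 at 90% epiboly and of fgf24 at 3-ss are bounds. The probe set of fgf8b, a paralog of fgf8a, stayed under the floor on all 4 arrays, with signals from 8.20 to 15.7.

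Sprouty proteins sit at the membrane and hold back the Ras and Erk branch of the receptor signal, and their genes are switched on by Fgf. The signal of spry4 was 724 in the wild-type and 367 in the en-pou5f3 pool at 90% epiboly, and 860 and 657 at 3-ss. The en-pou5f3 array at 90% epiboly stood lowest of the 4. The ratio there was -0.98 on the log2 scale, or 1.97-fold lower, just short of the threshold and lower than all but 277 of 11594 probe sets. This was 3.57 times the SD between probe sets of a gene. At 3-ss the ratio was -0.39, or 1.31-fold lower, which is 1.16 times that SD. The ratio at 3-ss was 0.59 above that at 90% epiboly, against a range of -0.72 to 0.77 for the middle 90% of 10100 probe sets over the floor on all 4 arrays.

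For spry2 the annotation holds 3 probe sets, all dim. The brightest had signals of 59.9 and 29.0 in the wild-type and the en-pou5f3 pool at 90% epiboly, followed by 35.0 and 33.1 at 3-ss. Another had 48.2 in wild-type embryos at 90% epiboly and 3.04, 6.0 and 13.3 on the other arrays, and the last lay under the floor on all 4. In both probe sets that passed the floor, the wild-type array at 90% epiboly was the highest. They gave bounds of -0.88 and -0.57 on the log2 scale for en-pou5f3 over wild-type embryos at 90% epiboly, that is at least 1.85-fold and 1.49-fold lower. At 3-ss the brightest had a ratio of -0.08, within the SD between probe sets.

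The phosphatase Dusp6 removes the activating phosphates of Erk. Its brighter probe set had signals of 2262 in the wild-type and 1744 in the en-pou5f3 pool at 90% epiboly, followed by 2021 and 1881 at 3-ss. The log2 ratios were -0.38 and -0.10, the second within the SD between probe sets. A dimmer probe set gave 71.9 and 50.5 at 90% epiboly and 49.6 and 60.3 at 3-ss, with ratios of -0.51 and 0.28. The probe sets of dusp6 thus shared a lower value in en-pou5f3 embryos at 90% epiboly and differed in direction at 3-ss. In neither did a ratio come near 2-fold.

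The transmembrane inhibitor il17rd, also known as Sef, is expressed in the domains of Fgf signaling in zebrafish. Its signals were 875 and 771 in the wild-type and the en-pou5f3 pool at 90% epiboly, and 1160 and 942 at 3-ss. Of the 4 feedback inhibitors it had the smallest decrease at 90% epiboly, with ratios of -0.18 there and -0.30 at 3-ss. Both were smaller than the SD between probe sets.

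The ETS factors etv4 and etv5b, known in zebrafish as Pea3 and Erm, are transcribed in cells that receive Fgf and carry the signal to its target genes. The signal of etv4 was 840 in the wild-type and 557 in the en-pou5f3 pool at 90% epiboly, and 678 and 468 at 3-ss. Both en-pou5f3 arrays lay below both wild-type arrays. How many of all probe sets have this order was not computed, and the 2 arrays of a genotype are different stages. The log2 ratios of -0.59 and -0.53 were nearly the same at both stages, or 1.51-fold and 1.45-fold lower, and came to 2.17 and 1.59 times the SD between probe sets.

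The other ETS gene, etv5b, had the opposite value at 90% epiboly. Its signal was 2973 in the wild-type and 4580 in the en-pou5f3 pool at this stage, and 2359 and 2245 at 3-ss. The en-pou5f3 array at 90% epiboly stood apart as the highest of the 4. The log2 ratio there was 0.62, or 1.54-fold higher, above that of 11014 of 11594 probe sets. At 3-ss it was -0.07, and the difference between the stages, -0.69, was lower than that of all but 5.47% of the 10100 probe sets. By its brightest probe set, no other of the 8 genes had a ratio above 0 in either genotype comparison. Its paralog etv5a had signals of 888 and 1399 in its brighter probe set at 90% epiboly, then 893 and 1032 at 3-ss, with ratios of 0.66 and 0.21. A dimmer etv5a probe set had ratios of 0.12 and -0.23.

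**Figure D2:**
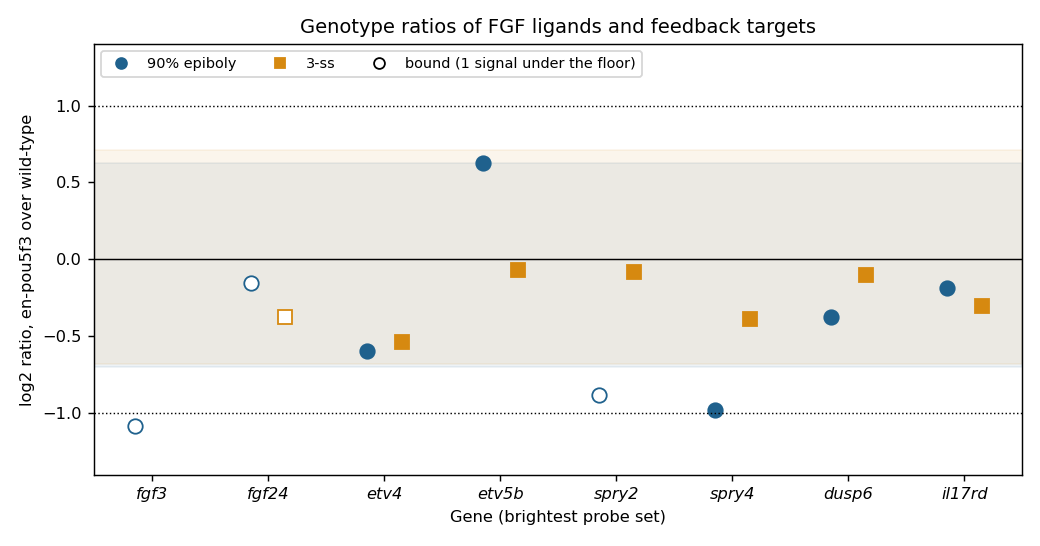
Genotype ratio (log2, en-pou5f3 over wild-type) for each gene at 90% epiboly (circles) and 3-ss (squares), with open symbols for bounds, dotted lines at 2-fold and shaded bands for the middle 90% of all probe sets at each stage (-0.70 to 0.62 and -0.68 to 0.71). At 90% epiboly fgf3, spry2 and spry4 lie under the band and etv5b at its upper edge, while all 7 values at 3-ss lie within it.

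The second pair of comparisons followed each genotype from 90% epiboly to 3-ss. They use the same 4 arrays as the genotype comparisons and so are not independent of them. In wild-type embryos 5 of 8 genes measured were lower at 3-ss and 3 higher. Their median log2 ratio was -0.24, against 0.02 over all probe sets. The bound of fgf3 was past 2-fold lower and 0 genes were 2-fold higher, while 3.97% of 11815 probe sets were lower and 8.0% higher. In en-pou5f3 embryos 6 genes were measured, 2 lower and 4 higher, with a median of 0.07 against 0.03. Here etv5b was 2-fold lower (-0.96, and so not 2-fold, after quantile normalization) and 0 were higher, where 3.17% of 12010 probe sets were lower and 7.67% higher. The shares of all probe sets below 0 were not computed for the stage ratios, and nothing is read from the counts by direction.

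The decrease of etv5b between the stages was from 2973 to 2359 in wild-type and from 4580 to 2245 in en-pou5f3 embryos, with log2 ratios of -0.33 and -1.03. The genotypes differed at the earlier stage and had like signals at the later one. For spry4 the signal was 1.19-fold higher at 3-ss than at 90% epiboly in wild-type embryos and 1.79-fold higher with en-pou5f3, with ratios of 0.25 and 0.84. Here too the genotypes lay farther apart at 90% epiboly.

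Of the other genes, etv4 had stage ratios of -0.31 (wild-type) and -0.25 (en-pou5f3), and il17rd had 0.41 and 0.29. The brighter dusp6 probe set had -0.16 and 0.11. All of these but the wild-type ratio of il17rd were within the SD between probe sets of 0.40 and 0.35. A dimmer dusp6 probe set had -0.54, beyond that SD, and 0.25. For spry2 wild-type embryos had a ratio of -0.77 and en-pou5f3 embryos a bound of 0.03. The ligand fgf24 had 0.22 in wild-type embryos and was under the floor on both en-pou5f3 arrays.

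**Figure D3:**
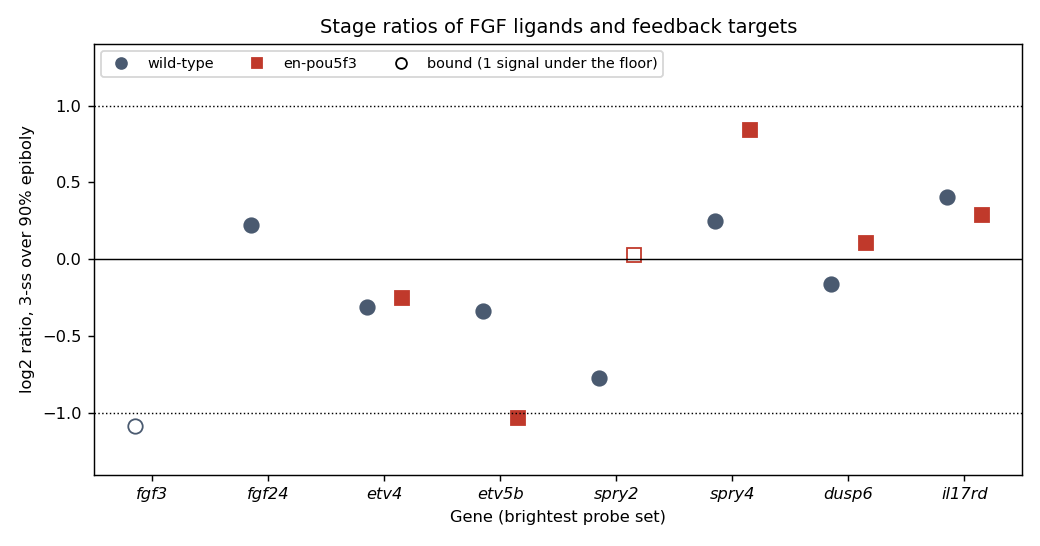
Log2 ratio of 3-ss over 90% epiboly signal for each gene in wild-type (circles) and en-pou5f3 embryos (squares), with open symbols for bounds and dotted lines at 2-fold. Past 2-fold are the wild-type bound of fgf3 (-1.08) and etv5b in en-pou5f3 embryos (-1.03), and spry4 lies higher in en-pou5f3 (0.84) than in wild-type embryos (0.25).

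The rest of the pathway was followed through 95 genes in 4 roles, of which 52 have a probe set. At 90% epiboly 40 were measured, and 2 of them were 2-fold lower and 3 higher. At 3-ss 48 were measured, 2 of them lower and 1 higher. Over all probe sets 2.25% were lower and 1.30% higher at 90% epiboly, and 1.94% and 1.80% at 3-ss, and nothing particular to the list is read from its counts. The measured genes of the list had median log2 ratios of 0.22 and 0.17, against 0.03 and 0.01 over all probe sets. The medians of the list lay above 0, while those of the 9-gene group lay below it. Both sets of genes were chosen with earlier results of these data known. Most genes of the wider list, 35 at 90% epiboly and 45 at 3-ss, passed 2-fold in neither direction.

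Among the other ligands, 8 of 21 have a probe set and 6 passed the floor on some array. Apart from fgf8a, the one measured on all 4 arrays was fgf13a, an intracellular relative of the secreted Fgfs, with log2 ratios of 0.54 and 0.70. The signal of fgf10a was 12.2 in the wild-type and 40.3 in the en-pou5f3 pool at 90% epiboly, and 53.0 and 74.4 at 3-ss. Its ratio at 3-ss was 0.49.

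Receptors carry the signal into the cell, and none measured was 2-fold apart between the genotypes. Over all probe sets 2.25% were lower and 1.30% higher at 90% epiboly, and 1.94% and 1.80% at 3-ss. At these shares the count says little about so few genes. The signal of fgfr4 was 3830 in the wild-type and 3081 in the en-pou5f3 pool at 90% epiboly, and 2833 and 2644 at 3-ss, with log2 ratios of -0.31 and -0.10. For fgfr2 the ratios were -0.17 and -0.35, and a dimmer probe set had -0.32 and 0.14. The signal of fgfr3 was 146 in the wild-type and 263 in the en-pou5f3 pool at 90% epiboly, a ratio of 0.85, and 331 and 302 at 3-ss, a ratio of -0.13. The receptor-like gene fgfrl1a, whose protein lacks a kinase domain, had ratios of 0.29 and -0.20. It was 2-fold higher at 3-ss than at 90% epiboly in both genotypes, with stage ratios of 2.17 and 1.68. The fgfr1a probe set passed the floor only in en-pou5f3 embryos at 3-ss, at 36.6. Over all 7 receptors and extracellular modulators measured at 90% epiboly the median was 0.29, and over 8 at 3-ss it was 0.04.

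Of the signal transducers between receptor and nucleus, 14 were measured at 90% epiboly and 15 at 3-ss, with medians of 0.09 and 0.19. None passed 2-fold, which at the shares over all probe sets (2.25% lower and 1.30% higher, then 1.94% and 1.80%) says little about so few genes. The ratios ran from -0.70, for the adaptor gene grb2a, to 0.26 at 90% epiboly and from -0.29 to 0.60, for its paralog grb2b, at 3-ss. The 3 probe sets of mapk3, the gene of Erk1, differed in direction, with ratios of -0.30 to 0.27 at 90% epiboly and -0.20 to 0.07 at 3-ss.

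Other feedback inhibitors, ETS genes and early targets held all genes of this wider list past 2-fold between genotypes by brightest probe set, apart from fgf8a. The homeobox gene gbx2, which marks the anterior hindbrain side of the boundary, had a signal of 205 in the wild-type and 1221 in the en-pou5f3 pool at 90% epiboly, followed by 637 and 553 at 3-ss, with log2 ratios of 2.58 and -0.20. The brighter probe set of the Erk phosphatase gene dusp7 had 85.4 and 178 at 90% epiboly and 289 and 372 at 3-ss, with log2 ratios of 1.06 and 0.36. A dimmer one, over the floor on all 4 arrays, had 0.17 and 0.16, and with the mean of both dusp7 was not 2-fold higher. Another MAP kinase phosphatase gene, dusp2, had 104 and 283, then 117 and 96.7, with ratios of 1.45 and -0.27. By their brightest probe sets these 3 genes were 2-fold higher in en-pou5f3 embryos at 90% epiboly and below 2-fold at 3-ss. For tbx16, also of this role, the brighter probe set had ratios of 0.43 and 0.66 and a dimmer one 1.56 and 0.82. The brightest fosab probe set had 0.80 and 0.72. A dimmer fosab probe set was 2-fold higher at 3-ss, at 1.11, while the others had 0.51 and 0.55 there.

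The Myc family gene mych was lower at both stages, with signals of 2225 and 638 at 90% epiboly and 1919 and 751 at 3-ss and log2 ratios of -1.80 and -1.35. At 3-ss ets2, a further ETS gene, was higher, with signals of 186 in the wild-type and 418 in the en-pou5f3 pool and a ratio of 1.17. It had 0.52 at 90% epiboly. Over the 16 genes of this role measured at 90% epiboly the median was 0.46, with 13 ratios above 0. Over 19 at 3-ss it was 0.10, with 11 above 0. The medians over all probe sets were 0.03 and 0.01. Their shares above 0 were not computed, and nothing is read from these counts. At 90% epiboly both probe sets of dusp6 lay below 0 and both of dusp7 above it.

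**Figure D4:**
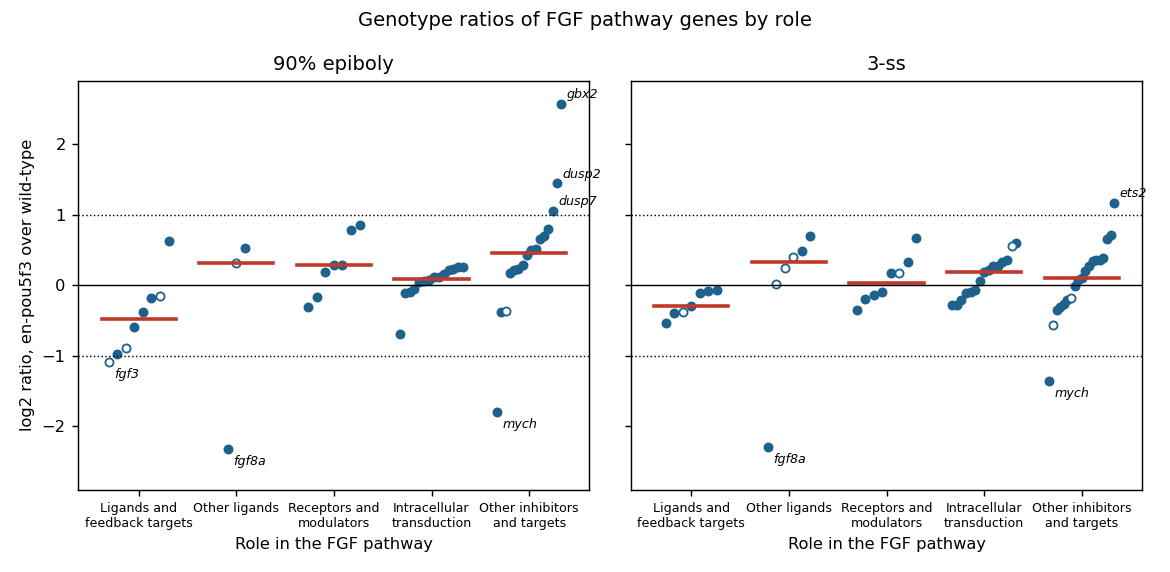
Genotype ratio (log2, en-pou5f3 over wild-type) at 90% epiboly (left) and 3-ss (right) by role in the pathway, 1 point per measured gene (open for bounds), with red lines for medians, dotted lines at 2-fold and names for genes past it. The medians of the ligands and feedback targets (-0.48 and -0.30) lie below 0, and those of the other roles lie above it. At 90% epiboly the other ligands are 3 genes, with fgf8a at -2.32 and a bound, that of fgf10a, as median. At 3-ss the receptor median is 0.04, against 0.01 over all probe sets.

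Between the stages, 3 of 43 pathway genes measured in wild-type embryos were 2-fold lower at 3-ss and 6 higher, and in en-pou5f3 embryos 3 of 46 were lower and 5 higher. The shares over all probe sets were 3.97% lower and 8.0% higher in wild-type embryos, and 3.17% and 7.67% with en-pou5f3. The signal of fgf8a was 2-fold lower at 3-ss in both genotypes, with ratios of -1.05 and -1.02. For gbx2 wild-type embryos had a ratio of 1.64 and en-pou5f3 embryos one of -1.14. The phosphatase gene dusp5 had stage ratios of 3.15 in both genotypes, a bound in en-pou5f3 embryos, and the immediate early gene fosab had 3.24 and 3.16.

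Genes that mark the regions where Fgf acts were read beside these values. Over all probe sets 2.25% were 2-fold lower and 1.30% higher at 90% epiboly, and 1.94% and 1.80% at 3-ss. The medians over all probe sets were 0.03 and 0.01. Of 6 listed markers of the midbrain-hindbrain boundary, 4 had a probe set by symbol. For eng2a and eng2b none was found under these symbols. Of these 4, 2 were 2-fold lower and 1 higher in en-pou5f3 embryos at 90% epiboly, and 1 was lower at 3-ss. Their median log2 ratios were -0.89 and -0.50. The paper reports a decrease of the boundary gene en2a at both stages, from its array data. The symbol en2a was not searched for, so these counts and medians leave it out. Whether en2a is another name of eng2a was not checked. The boundary gene pax2a had signals of 714 and 127 at 90% epiboly, followed by 702 and 371 at 3-ss, and her5 had 1183 and 382, then 762 and 102. The gene of this list that was higher was pax8, with signals of 34.1, near the floor, and 74.7 at 90% epiboly. Whether pax8 marks the boundary at that stage was not tested. At 3-ss pax8 had 34.1 and 21.2. For wnt1 the log2 ratios were -0.15 and 0.24. Of 7 markers of the germ ring, margin and tailbud, 1, tbxta, was lower at 90% epiboly, and the medians were 0.16 and 0.02. At 90% epiboly 3 of these ratios were below 0 and 4 above it, among them tbx6 at 0.98 and tbx16 at 0.43. A dimmer tbx16 probe set was 2.95-fold higher at this stage, at 1.56. Below 0 were tbxta at -1.08, cdx4 at -0.91 and eve1 at -0.59. At 3-ss 3 ratios were again below 0 and 4 above it, with cdx4 at -0.93, eve1 at -0.75 and tbx16 at 0.66. Of 6 somite and presomitic markers 2 were lower at each stage, with medians of -0.43 and -0.52. Of 4 hindbrain markers 1, egr2b, was higher at 90% epiboly, at 2.51, and 1, hoxa2b, was lower at 3-ss, at -1.08. Their medians of 0.39 and -0.44 cover ratios on both sides of 0. Of 4 neural plate markers 2 were lower at 90% epiboly and 1 at 3-ss, with medians of -0.80 and -0.71. At 3-ss sox2 had -0.85 in its brightest probe set, while a dimmer one, at -1.10, was past 2-fold and the dimmest had -0.49. Epidermal markers had medians of -0.13 and -0.06 over 5 genes and heat shock genes of 0.20 and 0.12 over 4, with 0 past 2-fold in either list. Among the epidermal markers tp63 had a ratio of -0.75 at each stage, and a dimmer tp63 probe set had -0.48 and -0.56. The keratin genes of that list had ratios from -0.14 to 0.05. The part of these regions in the values of the 9 genes was not tested.

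Genes of like pattern were to be named only for those of the 9 with enough spread over the 4 arrays. Their log2 signals had to deviate by a root mean square of at least 0.5 from their own mean, and none did. The 5 genes over the floor on all 4 arrays reached 0.14 to 0.46. With a minimum of 0.3, chosen after seeing this, 3 of them qualified. The pattern of spry4 was nearest to that of vim, the gene of the filament protein vimentin, with signals of 132, 66.6, 164 and 128 in the order wild-type and en-pou5f3 at 90% epiboly, then at 3-ss, and next to those of cldnk and fpgs. For etv5b the nearest named genes were relt, LOC797085 and anxa2b, and for etv4 they were psmf1, wu:fb08f09 and bud23. These nearest genes are not the only ones alike. Among 7740 named probe sets over the floor on all 4 arrays, 21 lay within 0.3 of spry4, 58 of etv5b and 159 of etv4.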

How the data were processed

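The deposited values are intensity signals on a linear scale, which the authors made with MAS5 (version not given in the sources used here) from 250 ng of RNA per pool on Affymetrix zebrafish arrays. The supplementary methods speak of more arrays than the 4 described here, and supplementary tables head their columns by heat shock. The labels, which give genotypes, were followed. The 115 control probe sets were left out, and signals under the floor were set to it. Log2 ratios were taken from 2 arrays each, with 2-fold as threshold and, per gene, the probe set of highest mean signal. The code for ratios and 2-fold calls was tested on simulated signals, with changes beyond 2-fold planted in bright probe sets only. This checks the code, not the reliability of dim signals or of changes near 2-fold. With 1 array per condition there are no p-values.

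The annotation names 1 gene for 10802 probe sets, several for 135 and does not list 4680. Genes were named only from probe sets with 1 symbol, while shares, medians and ranks over all probe sets include the others. The genes and lists were chosen with earlier results of these data known. Named genes were all 9, fgf8a, etv5a, the receptors measured, pathway genes past 2-fold between genotypes, and the 3 nearest in pattern. Other pathway and marker genes, and those named for stage changes, were chosen after their values were seen. Alternatives changed the floor, scaling, threshold and choice of probe set. Python 3.11.15, numpy 2.4.6, pandas 2.3.3 and matplotlib 3.10.9 were used.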

Additional observations from a re-analysis of the deposited data

Results flagged for a closer look

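The genotype ratio of etv5b, en-pou5f3 over wild-type, had opposite signs at the stages, 0.62 at 90% epiboly and -0.071 at 3-ss on the log2 scale. The stage ratio, 3-ss over 90% epiboly, had opposite signs in the genotypes for dusp6 (-0.16 for wild-type, 0.11 for en-pou5f3) and for spry2 (-0.77 and a bound of 0.031). With 1 array per condition these differences were not tested. The later value of etv5b, both of this brighter dusp6 probe set and the bound of spry2 are within the SD between probe sets of a gene. A dimmer dusp6 probe set had stage ratios of -0.54 and 0.25, the first beyond that SD.

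Outside the genes described, 1 of 115 control probe sets had signals of 5531 and 14534 in the en-pou5f3 pools at 90% epiboly and 3-ss, against 110 in wild-type embryos at 90% epiboly. In wild-type embryos at 3-ss it had 1670, which is 15.2-fold more than in wild-type embryos at 90% epiboly. The target of this probe set is not named in the files.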

How the results depend on the processing

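No paired analysis was possible because each condition has 1 array, and for the same reason no array could be left out. Neither scaling moved the median of all probe sets by as much as 0.1. For the 9 genes, counts and medians depended mostly on how dim signals were treated. Without the floor, and equally with it at the median of the control signals (6.45), 3 genes were 2-fold lower at 90% epiboly, where the median became -0.79, and 1 was lower at 3-ss. With the floor added to both signals 0 were lower at 90% epiboly, and without probe sets under the floor on either array 0 were lower there or, in wild-type embryos, between the stages. With quantile normalization etv5b was no longer 2-fold lower between the stages in en-pou5f3 embryos, which left 0. At 1.5-fold 4 genes were lower and 1 higher at 90% epiboly, 2 were lower between the stages in wild-type and 1 higher in en-pou5f3 embryos. At 3-fold 0 were lower at 90% epiboly and 0 between the stages in either genotype.

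For the wider pathway, without the floor or with the lower one, 5 genes were lower and 8 higher at 90% epiboly, 3 were higher at 3-ss, 5 lower and 10 higher between the stages in wild-type, and 5 lower and 9 higher in en-pou5f3 embryos. At 1.5-fold 8 were higher at 90% epiboly and 6 at 3-ss, 13 higher between the stages in wild-type, and 6 lower and 11 higher in en-pou5f3 embryos. At 3-fold 1 was higher at 90% epiboly, 1 lower and 0 higher at 3-ss, 0 lower between the stages in either genotype and 3 higher in en-pou5f3 embryos. When genes were read by their most changed probe set, 2 were higher at 3-ss. Shares over all probe sets were not computed at these other settings. Nothing particular to the 9 genes or to the wider pathway is read from these counts. The other 169 counts and medians were within 1.5-fold or within the SD between probe sets. Among single genes 286 values stayed within that SD and 13 did not, and the one value to change sign was dusp6 at 3-ss, 0.28 with its most changed probe set and 0.09 with the mean of both.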
